A study of Mus musculus with 12 samples.

Results

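Asporin (Aspn) and 8 further genes of the small leucine-rich proteoglycan (SLRP) family, Dcn, Lum, Bgn, Fmod, Ogn, Omd, Prelp and Podn, were followed through perinatal lung development in 12 RNA-seq libraries of whole mouse lung. Lungs came from wild-type C57BL/6 mice of either sex at embryonic stages E15.5 and E18.5 and postnatal stages P5 and P8, with 3 libraries per time-point and no treatment. The 3 libraries of a time-point came from 1 litter, so that litter and time-point cannot be told apart and the p-values measure the spread among littermates. The genes were taken by symbol: 9 of 9 were in the table of 51825 genes given as counts per 1000000 mapped reads (CPM), and 8 of 9, all but Omd, were in the table of 16152 genes given as raw counts. Aspn was chosen by its change in exon inclusion and in expression in these same libraries, and its values are therefore given as a description with no test. For Aspn, 7 of 661162 events of the table of percent spliced in (PSI) were also taken, as the events that the study's lists assign to the gene.

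SLRPs are secreted proteins built around a curved stack of leucine-rich repeats, and most carry chondroitin, dermatan or keratan sulfate chains. They bind fibrillar collagens and set the width and spacing of collagen fibrils, and several also bind growth factors such as TGF-β. In the lung, they belong to the matrix that mesenchymal cells lay down around airways, vessels and alveolar walls. In bulk tissue, fewer cells of a type and less RNA per cell cannot be told apart.

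Aspn lies on chromosome 13 (mm10, chr13:49544443-49567565, plus strand), in a row with other family genes, Ecm2 on one side and Omd and Ogn on the other. All 4 sit inside an intron of Cenpp, a centromere protein gene on the opposite strand. That intron of 161496 bases runs from 49465759 to 49627254. In the Gencode vM21 annotation, the transcript Aspn-201 has 8 exons, and no annotated intron within Aspn or its neighbours Ecm2, Omd and Ogn spans the whole gene, whereas the Cenpp intron does. The 6 exon junctions of Aspn-201 that are coding on both sides are shown because reads across Aspn junctions are what its PSI values rest on. Each line gives the last 15 bases of the upstream exon in lower case and the first 15 bases of the downstream exon in capitals, followed by the Cenpp junction that spans Aspn, read on the minus strand.
Aspn exons 2 and 3: actgctctgatctagGTCTGACATCGGTTC
Aspn exons 3 and 4: ctcacttcactttatGCTCTGATTCTGAAC
Aspn exons 4 and 5: ctttacatgttttggAAATGAGTGCAAACC
Aspn exons 5 and 6: cctcaattccaaaagGCCTACCACCAACTT
Aspn exons 6 and 7: cagggaactgcaaagGCTGGGTCTTGGAAA
Aspn exons 7 and 8: ttgaaatacctccagATAATCTTCCTTCAT
Cenpp exons 5 and 6: tttaagcatttcaagGAGAAATACCCAGAT

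The libraries held 41337443 to 53901957 reads counted on genes. Summed levels of 6 lung epithelial markers, Sftpc among them, ranged from 1048 to 20638 CPM and were highest after birth. That sum is carried by secreted products, and of the 6 genes Sftpc, Sftpb and Scgb1a1 were called higher from E18.5 to P5, Epcam was called lower, from a mean of 208.6 to 63.8 CPM, and Nkx2-1 went from 216.1 to 140.3 CPM, under the fold threshold. Markers of tissue next to the lung differed between libraries of the same time-point. The summed level of 10 thymus markers, which include Rag1 and Foxn1, was 220.3 and 415.8 CPM in P8 replicates 1 and 2, 23.2 CPM in P8 replicate 3 and 35.6 CPM in E15.5 replicate 2. In the other 8 libraries it lay between 4.47 and 18.7 CPM. The adipocyte sum was also highest in P8 replicates 2 and 1, at 185.9 and 116.9 CPM, followed by 40.04 CPM in P5 replicate 3. The skeletal muscle sum was highest in these same 3 libraries, at 547.0 CPM in P8 replicate 1, 169.8 CPM in P5 replicate 3 and 144.8 CPM in P8 replicate 2. Several results that rest on these libraries are given with and without E15.5 replicate 2 and P8 replicates 1 and 2, and the others with all 12 libraries only.

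The genes took different courses around birth. From E18.5 to P5, Fmod, Lum and Dcn fell, Podn rose, and Aspn was about 6.75-fold higher by the fitted values, while Ogn, Prelp and Bgn stayed under the fold threshold. Of the 7 tested genes other than Aspn, 1 was called higher and 3 lower in this step (edgeR quasi-likelihood test, absolute log2 fold change above 1 and Benjamini-Hochberg adjusted p below 0.05 over all genes tested), where 17.5% of all 15994 genes tested were called higher and 9.34% lower. From E15.5 to E18.5, 0 of the 7 passed this edgeR test and 0 passed it by DESeq2, although 5 of 7 had an unadjusted p below 0.05 and 3 of 7, Bgn, Ogn and Prelp, an adjusted p below 0.05 with a smaller fold. The share of all genes called in that step was 1.59% higher and 1.46% lower. With an adjusted p below 0.05 alone, 3441 of the 15994 genes tested passed in it. From E18.5 to P5 that number was 11369, and from P5 to P8 it was 2872. The share of all genes with an unadjusted p below 0.05 is not given here. From P5 to P8, 2 of the 7, Podn and Dcn, were called higher and 0 lower by edgeR and by DESeq2, against 2.88% and 0.0875% of all genes, and of the 6 with an unadjusted p below 0.05 only Ogn was lower. Over the whole span from E15.5 to P8, 2 of the 7, Bgn and Podn, were called higher and 1, Fmod, lower, against 20.9% and 11.5% of all genes. The median log2 fold change of the 7 genes other than Aspn was 0.23, 0.03 and 0.63 in the 3 steps, and that of all genes tested was -0.01 at E15.5 to E18.5, -0.0024 at E18.5 to P5 and -0.0012 at P5 to P8. The 4 comparisons share libraries with each other.

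Markers of the mesenchymal cells that make SLRPs were followed in the same step from E18.5 to P5. Their calls are to be read against the 17.5% of all genes called higher and the 9.34% called lower. The summed level of 7 adventitial fibroblast markers was 232.4 to 250.1 CPM in the E18.5 libraries and 1134 to 1235 CPM for P5. Of these, 6 of 7 were called higher, Dpt, Cd34 and Clec3b among them. Cd34 made up most of the sum at E18.5, at a mean of 213.1 CPM. At P5, Cd34 and Dpt made up most of it, at means of 482.6 and 498.4 CPM. The summed level of 7 fibroblast markers was 779.0 to 908.4 CPM for E18.5 and 1742 to 1770 CPM for P5. Of these 7, Npnt and Tcf21 were called higher, and Npnt alone rose from a mean of 284.6 to 1046 CPM. Meox2 and Col13a1 were higher at P5 but not called. Pdgfra, Fgf10 and Gli1 went the other way, from means of 178.9, 49.5 and 48.8 CPM to 147.5, 35.3 and 23.6 CPM. Smooth muscle and myofibroblast sums were 759.6 to 884.4 and 869.2 to 974.9 CPM (2 of 6 higher), and pericyte sums 358.9 to 389.3 and 431.7 to 461.8 CPM (1 of 5 higher). Tendon sums were 43.8 to 57.3 and 21.1 to 26.4 CPM, with Scx, at -1.01, called lower among 3 tested, though not without the 3 libraries with thymus markers. Bone sums were 20.99 to 25.7 and 120.3 to 122.3 CPM, nearly all of it Phex. Whether each marker, Cd34 among them, comes only from these cells in whole lung was not tested. The part of these cells in the SLRP levels was not tested either.

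**Figure D1:**
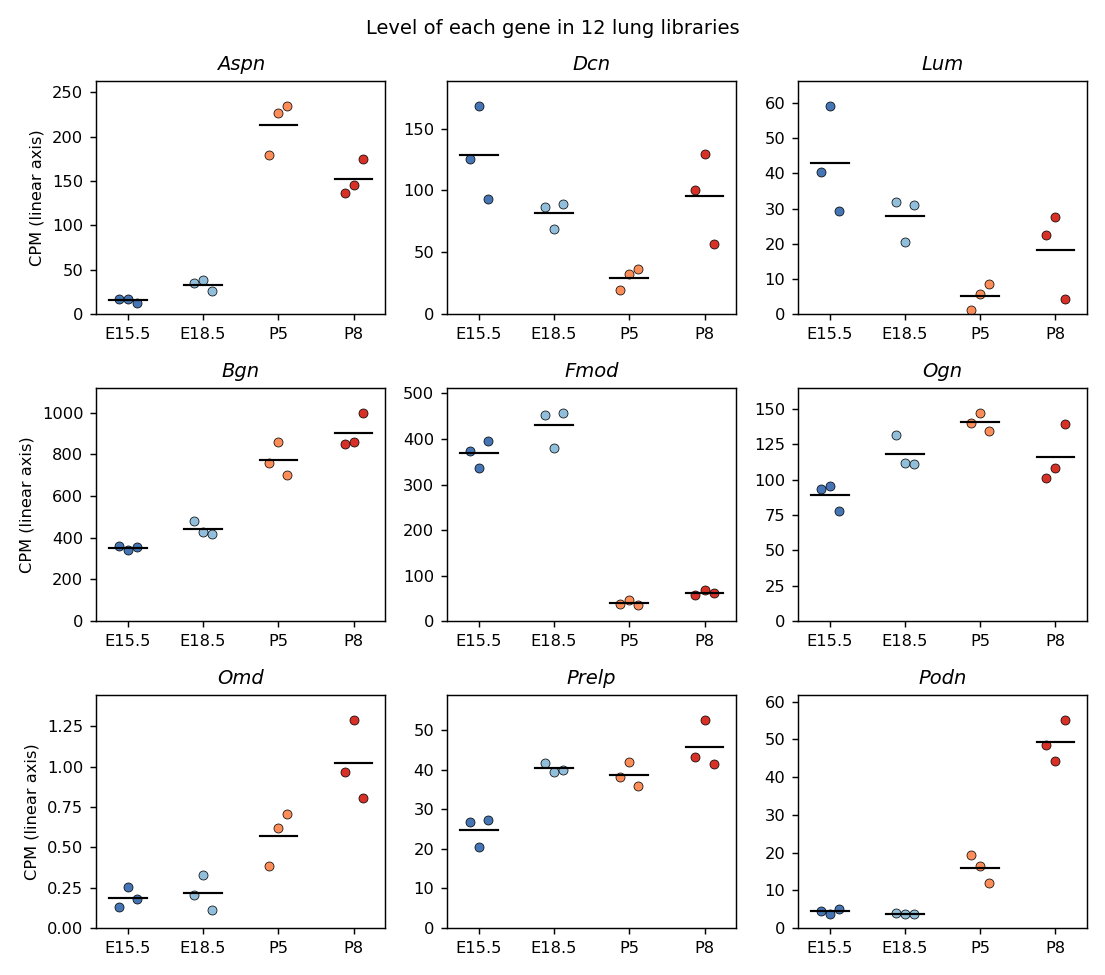
Level of each of the 9 genes in CPM on a linear axis that starts at 0 and differs between panels. Points are the 3 libraries of a time-point in replicate order and bars their mean. Fmod is at 336.5 CPM or more in every embryonic library and at 67.7 CPM or less in every postnatal library, and Aspn shows the opposite order.

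**Figure D2:**
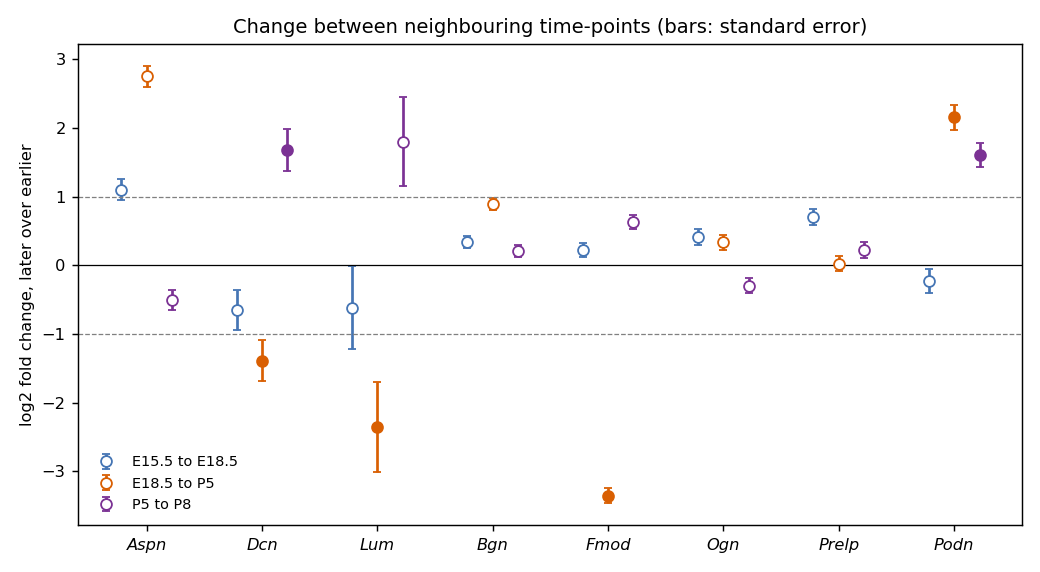
Fitted log2 fold change, later over earlier time-point, for 8 genes in the 3 neighbouring comparisons, with standard errors as bars. Filled points passed the test, open points did not, and the Aspn points are open because Aspn was not tested. Dashed lines mark a log2 fold change of 1 and -1. The 3 filled points below 0 are Dcn, Lum and Fmod from E18.5 to P5.

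Asporin differs from the other SLRPs in a stretch of aspartic acid near its start, and it binds collagen and TGF-β. Aspn stood at 17.4, 16.7 and 12.8 CPM in the E15.5 libraries, 35.4, 38.1 and 26.8 CPM for E18.5, 179.0, 226.0 and 234.4 CPM for P5, and 136.1, 145.5 and 174.8 CPM for P8. The 4 groups do not overlap, and the order of the levels is P5, P8, E18.5 and E15.5. The fitted log2 fold change was 1.10 (SE 0.15) from E15.5 to E18.5, 2.75 (SE 0.15) from E18.5 to P5 and -0.50 (SE 0.14) from P5 to P8. At P8, the lowest libraries were replicates 1 and 2, those with the highest thymus and adipocyte marker sums. Without these and E15.5 replicate 2, the P5 to P8 value moved from -0.50 to -0.31 and the whole-span value from 3.35 to 3.61.

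The genes whose levels followed Aspn most closely, by Pearson correlation of log2(CPM + 1) over the 12 libraries among 12153 genes with a mean of at least 5 CPM, were Cav2, Adamtsl3, Fhl1, Tprgl and Icam2, with r from 0.996 to 0.998. The 12 points share litters within a time-point and split into low embryonic and high postnatal libraries. Adamtsl3 encodes a secreted matrix protein, and its mean level was 2.35, 5.33, 29.9 and 23.1 CPM at the 4 time-points. Cav2, a caveolar coat protein gene, went from 52.5 CPM for E15.5 to 259.3 CPM for P5 and 220.6 CPM for P8.

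The 7 Aspn exon events form a chain. The reads on the downstream side of an event equal the reads on the upstream side of the next in 58 of the 72 pairs of junction and library, and differ by at most 8 reads in the others. This leaves 6 inner junctions. MmuEX1004515, the first of the chain, had 0 reads on its upstream side in every library, and MmuEX6058339, the last, had 0 reads on its downstream side in every library. The number of reads that skip the exon was nearly the same for all 7 events within a library, 188 to 191 in E15.5 replicate 1 and exactly 146 in E15.5 replicate 2, for example. Among the 190840 exon events with such read numbers in every library, only these 7 came within 5% of the Aspn skipping reads summed over the 12 libraries. The 7 PSI values of a library thus share 1 set of skipping reads and are not separate measurements.

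The deposited PSI, the share of inclusion in percent, was lower before birth than after it for all 7 events. Averaged over the events, it was 26.9%, 25.4% and 20.6% in the E15.5 libraries, 49.2%, 45.1% and 29.1% at E18.5, 92.8%, 90.4% and 90.1% at P5, and 90.6%, 86.2% and 93.6% at P8. All embryonic libraries lie below all postnatal ones, the E15.5 libraries lie below those of E18.5, and the P5 and P8 libraries overlap. The time-point means were 24.3% ± 3.30 (SD, n = 3), 41.1% ± 10.6, 91.1% ± 1.51 and 90.1% ± 3.72. From E18.5 to P5 the mean moved by 49.98 percentage points, and by 43.95 without E18.5 replicate 3. The 2 end events, which have reads on 1 side only, had the lowest deposited PSI at each time-point: 15.8% ± 4.39 for MmuEX1004515 and 15.3% ± 3.52 for MmuEX6058339 at E15.5, against 26.7% to 29.4% for the 5 inner ones. Uncorrected reads, with only the side that had reads used for an end event, did not set them apart in this way at E18.5. They gave 57.1%, 50.3% and 26.9% for MmuEX1004515 and 56.1%, 47.7% and 31.5% for MmuEX6058339 in replicates 1, 2 and 3. The inner events lay at 48.1% to 56.1%, 49.3% to 51.4% and 29.8% to 38.0% in these libraries.

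**Figure D3:**
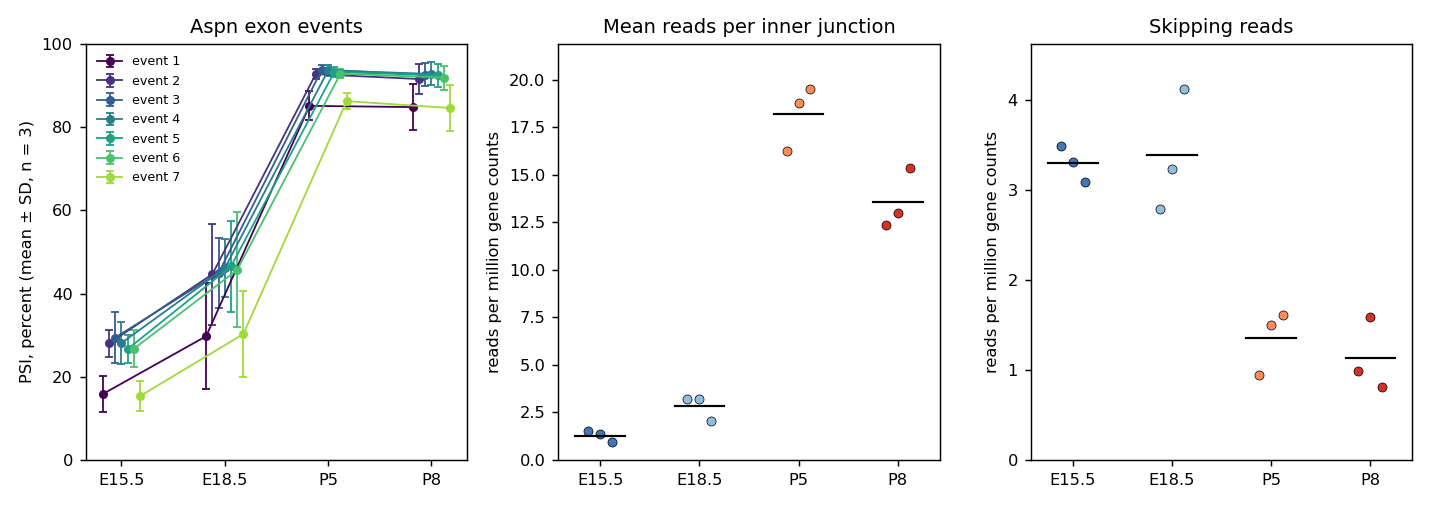
Left, PSI of the 7 Aspn events in percent, numbered along the chain, as mean and SD of 3 libraries at each time-point, with events set slightly apart. Middle and right, mean reads per inner Aspn junction and skipping reads, both per 1000000 reads counted on genes, for each library with the mean as a bar. The inclusion side went from 1.28 to 18.2 reads per 1000000 between E15.5 and P5 while the skipping side went from 3.29 to 1.35.

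The 2 sides of the PSI moved in opposite directions from E18.5 to P5, and in the steps before and after it their means differed in the same direction, those of the skipping reads by less than 1 SD. Reads per inner junction averaged 1.28 ± 0.296 per 1000000 reads counted on genes for E15.5, 2.83 ± 0.678 for E18.5, 18.2 ± 1.73 for P5 and 13.6 ± 1.59 for P8 (SD, n = 3). Skipping reads averaged 3.29 ± 0.200 per 1000000 for E15.5, 3.38 ± 0.681 for E18.5, 1.35 ± 0.360 for P5 and 1.13 ± 0.409 for P8. In reads, the skipping side was 188, 146 and 136 in the E15.5 libraries, 118, 148 and 198 at E18.5, 50, 63 and 85 at P5, and 41, 85 and 43 at P8. Skipping reads were thus fewer in each postnatal library than in any embryonic one, at 41 to 85 against 118 to 198, as Aspn itself stood higher.

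Set beside gene counts, the inclusion side went with Aspn, but reads across Aspn junctions also lie on the exons that its count covers. A steady ratio between them is therefore not a separate result. Mean reads per inner junction ran from 0.0642 to 0.0788 for each read counted on Aspn, a range of 1.23-fold over 12 libraries in which Aspn itself ranged 18.4-fold in CPM. Skipping reads for each Aspn read ranged 51.8-fold, from 0.00404 in P8 replicate 3 to 0.210 in E15.5 replicate 3. Scaled only to the reads counted on genes, skipping reads ranged 5.10-fold. The 51.8-fold range therefore also carries the range of Aspn itself. For each read counted on Cenpp, the gene whose intron holds Aspn, skipping reads ran from 0.148 in P5 replicate 1 to 0.296 in P8 replicate 2, a range of 1.996-fold, and the time-point means were 0.221, 0.240, 0.202 and 0.222.

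Cenpp, which encodes a part of the centromere complex that chromosomes need at cell division, stood at 12.2, 13.8 and 12.96 CPM in the E15.5 libraries, 11.9, 11.9 and 12.9 CPM for E18.5, 5.41, 5.80 and 5.95 CPM for P5, and 4.02, 4.69 and 4.39 CPM for P8. It fell by 1.01 on the log2 scale (SE 0.10) from E18.5 to P5, with an adjusted p of 1.21e-06 in edgeR's quasi-likelihood test. This is close to the fold threshold, and the difference was -0.99 by DESeq2 or with its size factors and -0.98 without E18.5 replicate 3, which are under it. All 5 proliferation markers, Mki67 among them, were called lower in the same step, where 9.34% of all genes were. The deposited table names no junction for the skipping reads, and the part that Cenpp transcripts have in them was not tested. The exons of Cenpp and Aspn share 7 bases in the annotation. Whether the counting used strand is not given in the sources used here.

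**Figure D4:**
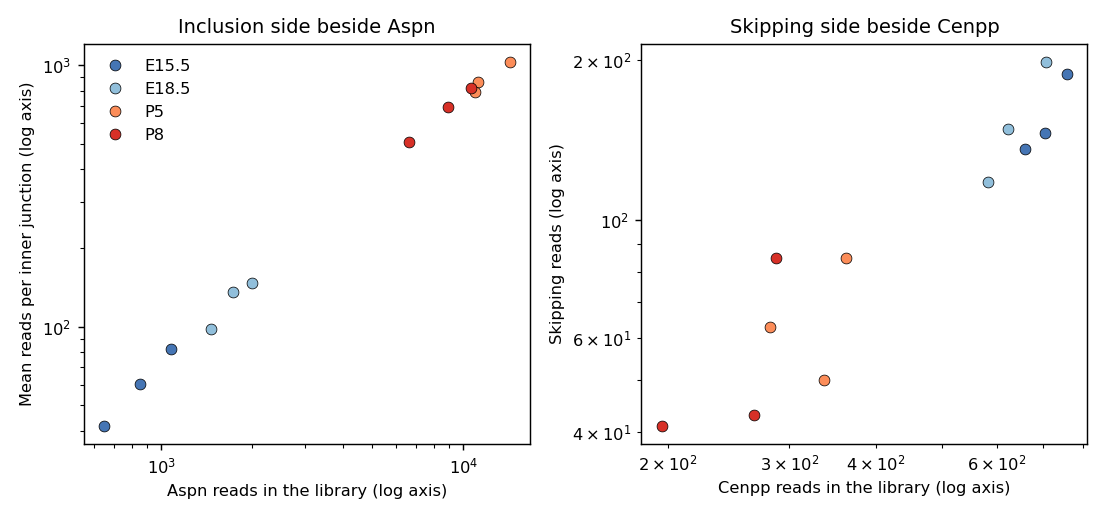
Left, mean reads per inner Aspn junction against reads counted on Aspn in the same library. Right, Aspn skipping reads against reads counted on Cenpp. All axes are logarithmic and each point is 1 of 12 libraries, coloured by time-point. The 6 postnatal libraries lie at the upper right on the left side and at the lower left on the right side.

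Fibromodulin (Fmod), a keratan sulfate SLRP that guides collagen fibril assembly and cross-linking, showed the largest change between neighbouring time-points among the 7 tested genes. Its levels were 374.1, 336.5 and 396.5 CPM for E15.5, 453.1, 379.2 and 457.4 CPM for E18.5, 37.1, 45.8 and 36.3 CPM for P5, and 57.6, 67.7 and 61.1 CPM for P8. The embryonic groups overlap each other, and each lies above both postnatal groups. Fmod fell by 3.35 on the log2 scale (SE 0.11) from E18.5 to P5, that is 10.2-fold, with an adjusted p of 4.20e-10 (edgeR). The later difference of 0.63 (SE 0.10) from P5 to P8 had an adjusted p of 0.00328 (edgeR) but stayed under the fold threshold. Without the 3 libraries with thymus markers, this difference was 0.60. Its neighbour Prelp, which anchors basement membranes to the tissue below, lies at chr1:133910304-133921414 on the minus strand, and Fmod at chr1:134037254-134048277 on the plus strand. Prelp was measured at 26.7, 20.6 and 27.3 CPM for E15.5, 41.6, 39.5 and 39.9 CPM for E18.5, 38.1, 42.1 and 35.9 CPM for P5, and 43.3, 52.7 and 41.5 CPM for P8. It had a log2 fold change of 0.70 (SE 0.11, adjusted p = 0.00211, edgeR) from E15.5 to E18.5 and of 0.03 (SE 0.11, adjusted p = 0.849) from E18.5 to P5. The 2 neighbours thus had different courses from E18.5 to P5.

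Decorin (Dcn) and lumican (Lum), which coat collagen fibrils and limit their lateral growth, lie side by side on chromosome 10 (chr10:97479609-97518143 and chr10:97565128-97572703, both on the plus strand). Dcn stood at 125.6, 168.2 and 93.4 CPM for E15.5, 86.8, 68.6 and 89.2 CPM for E18.5, 19.5, 32.2 and 37.0 CPM for P5, and 100.3, 129.4 and 56.5 CPM for P8. The P5 group lies below all others, and E15.5 and P8 overlap. Dcn fell by 1.39 on the log2 scale (SE 0.30, adjusted p = 0.00114, edgeR) from E18.5 to P5 and rose by 1.68 (SE 0.30, adjusted p = 0.00503) from P5 to P8. Lum stood at 40.4, 59.1 and 29.2 CPM for E15.5, 32.0, 20.5 and 31.1 CPM for E18.5, 1.24, 5.66 and 8.70 CPM for P5, and 22.5, 27.7 and 4.22 CPM for P8. It fell by 2.35 (SE 0.65, adjusted p = 0.00617) from E18.5 to P5, and its difference of 1.81 (SE 0.65) from P5 to P8, where the groups overlap, had an adjusted p of 0.0727.

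Within P8, P5 and E15.5, but not E18.5, both genes were highest in a library with raised markers of other tissues. At P8, Dcn and Lum were highest in replicate 2 and lowest in replicate 3, in the order of the thymus and adipocyte sums (415.8, 220.3 and 23.2 CPM, and 185.9, 116.9 and 9.89 CPM for replicates 2, 1 and 3). At P5 they were highest in replicate 3, lowest in replicate 1, and the adipocyte sums were 40.04, 10.2 and 3.44 CPM in replicates 3, 2 and 1. At E15.5 both were highest in replicate 2, the library with 35.6 CPM of thymus markers against 4.71 and 5.70 CPM in the others. At E18.5 Dcn was highest in replicate 3 and Lum in replicate 1, while the thymus sums were 4.47 to 4.63 CPM and the adipocyte sums 0.0821 to 0.110 CPM. The part of such tissue in these levels was not tested. With the 3 libraries left out, which leaves 1 library at P8 that is assumed to vary like the rest, the fall of Dcn from E18.5 to P5 was 1.37 with an adjusted p of 7.81e-05 and that of Lum 2.34 with an adjusted p of 0.000947 (edgeR). The P5 to P8 difference of Dcn was then 0.92 with an adjusted p of 0.0824, no longer called, and that of Lum was -0.31 with an adjusted p of 0.851. Lum from E15.5 to P8 moved from -1.16 with an adjusted p of 0.102 to -2.96 with an adjusted p of 0.00603. Deviations of Dcn and Lum from their time-point means had a Pearson r of 0.964 over the 12 libraries. The genes closest to Dcn in pattern were Sox2, Cadm4, Adam11, Ccnd3 and Osr1, with r from 0.940 to 0.968 on the same scale as for Aspn.

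**Figure D5:**
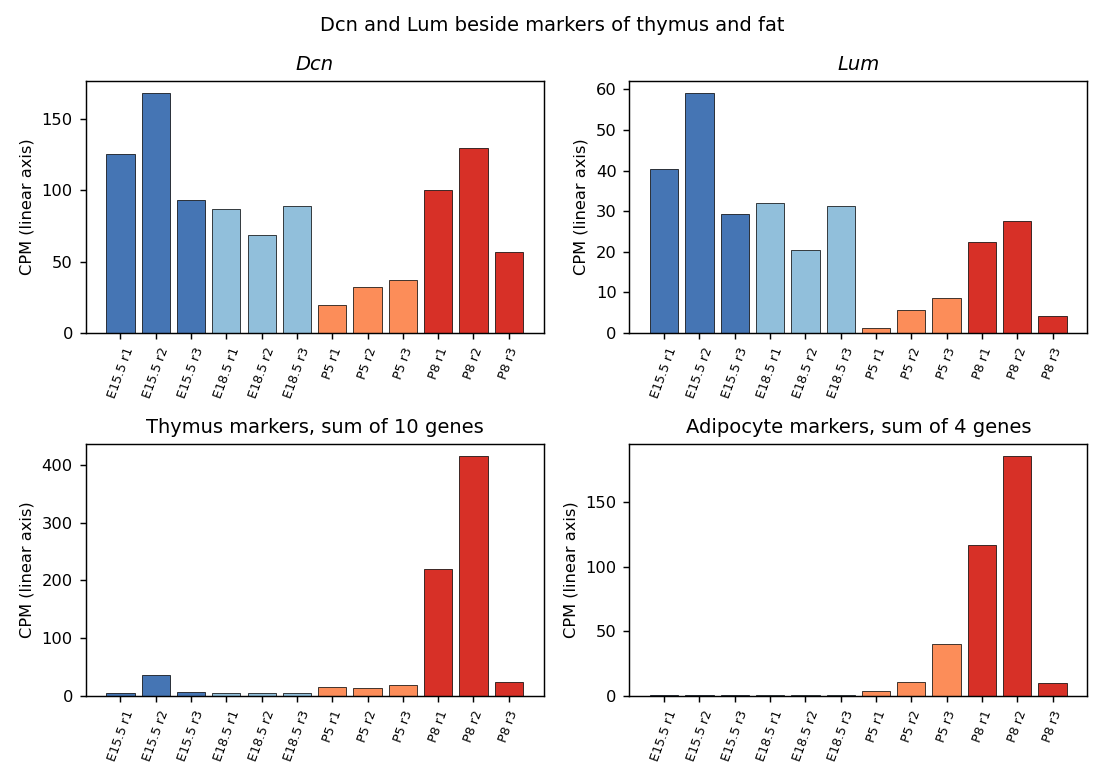
Dcn and Lum in CPM in each of the 12 libraries (r1 to r3 are replicates), above the summed CPM of 10 thymus and 4 adipocyte markers, on linear axes from 0. Within P8, replicate 2 is highest and replicate 3 lowest in all 4 panels.

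Biglycan (Bgn), the closest relative of Dcn, with 2 chondroitin or dermatan sulfate chains, had the highest level of the 9 after birth. It was measured at 359.9, 340.0 and 353.1 CPM for E15.5, 478.3, 428.7 and 417.5 CPM for E18.5, 760.0, 857.3 and 699.6 CPM for P5, and 850.4, 857.8 and 998.7 CPM for P8. Each group lies above the one before it, except that P5 and P8 overlap. No neighbouring step passed the fold threshold, with 0.34 (SE 0.09, adjusted p = 0.0188), 0.89 (SE 0.09, adjusted p = 1.79e-06) and 0.21 (SE 0.09, adjusted p = 0.121) on the log2 scale. Over the whole span Bgn rose by 1.44 (SE 0.09, adjusted p = 2.20e-08, edgeR). Bgn lies on the X chromosome, at chrX:73483602-73495933 on the plus strand, and the sex of each library was not analysed here.

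Podocan (Podn), an SLRP found in vessel walls and kidney, rose from E18.5 to P5 and again from P5 to P8. It lies at chr4:108014791-108096445 on the minus strand. Its levels were 4.58, 3.81 and 5.03 CPM for E15.5, 4.0025, 3.77 and 3.66 CPM for E18.5, 19.3, 16.6 and 11.9 CPM for P5, and 48.6, 44.3 and 55.3 CPM for P8. The embryonic groups overlap and each postnatal group lies above all earlier ones. Podn rose by 2.16 on the log2 scale (SE 0.18, adjusted p = 3.66e-07, edgeR) from E18.5 to P5 and by 1.61 (SE 0.17, adjusted p = 0.000362) from P5 to P8, and by 1.76 (adjusted p = 0.00550) in the second step without the 3 libraries. Markers of mesothelium, the cell layer on the lung surface, also rose from P5 to P8. Their summed level was 197.3 to 276.7 CPM for P5 and 672.6 to 688.8 CPM for P8, all 6 of 6 were called higher (2.88% of all genes), and Msln had a mean of 88.0 CPM for P5 and 279.7 CPM for P8. Without the 3 libraries 4 of 6 were called, as Krt19 at 0.83 (adjusted p = 0.0265) and Upk1b at 0.82 (adjusted p = 0.0856, edgeR) were under the fold threshold. The earlier steps were less alike. From E18.5 to P5, 2 of the 6 markers were called higher and 1, Wt1, lower, against 17.5% and 9.34% of all genes. From E15.5 to E18.5, 0 were called higher and 2, Lrrn4 and Wt1, lower (1.59% and 1.46% of all genes). The part of mesothelium in the Podn levels was not tested. Within P8, Podn was highest in replicate 3, the library with the lowest thymus and adipocyte sums.

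Osteoglycin (Ogn) and osteomodulin (Omd), named for their discovery in bone, lie next to each other downstream of Aspn at chr13:49608046-49624501 and chr13:49582462-49592822, both on the plus strand. Ogn stood at 93.3, 95.6 and 77.9 CPM for E15.5, 131.7, 111.4 and 110.9 CPM for E18.5, 139.7, 147.1 and 134.5 CPM for P5, and 101.04, 108.4 and 139.0 CPM for P8. The first 3 groups do not overlap, although the steps were small: 0.42 (SE 0.11, adjusted p = 0.0224), 0.34 (SE 0.11, adjusted p = 0.0174) and -0.29 (SE 0.11, adjusted p = 0.0901) on the log2 scale (edgeR). Without the 3 libraries with thymus markers, the Ogn difference from P5 to P8 was -0.04. Omd was near the limit of detection, at 0.110 to 0.325 CPM in the embryonic libraries, 0.385 to 0.707 CPM for P5 and 0.805 to 1.29 CPM for P8. It was missing from the count table, so its reads were taken back from the CPM values. On these, its log2 fold change was 1.47 (SE 0.46, adjusted p = 0.0145) from E18.5 to P5 and 0.82 (adjusted p = 0.235) from P5 to P8, in an edgeR fit chosen after the data were seen. The 4 family genes inside the Cenpp intron did not move as a block. Ecm2, whose protein shares leucine-rich repeats with the SLRPs, had means of 2.57, 3.26, 21.4 and 19.3 CPM and rose by 2.80 (SE 0.32, adjusted p = 5.43e-06) from E18.5 to P5, next to Aspn at 2.75 and Ogn at 0.34.

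Levels of different genes were compared per kilobase of exon, with CPM divided by the length of all annotated exons of a gene. At E15.5, Fmod was highest at 111.6 CPM per kb ± 9.18 (SD, n = 3), followed by Bgn at 57.5 ± 1.66 and Ogn at 34.7 ± 3.75, and Aspn came 7th at 6.65 ± 1.07, not separated from Prelp at 6.87 ± 1.03. At E18.5 Fmod, Bgn and Ogn kept the first places in that order, and Aspn, Dcn, Lum and Prelp followed with ranges that overlap from each to the next. At P5 the order opened with Bgn at 126.6 ± 13.05, Aspn at 90.5 ± 12.7 and Ogn at 54.7 ± 2.47, none overlapping the next, and Fmod was 4th at 12.03 ± 1.60, with a range that overlaps that of Prelp. At P8 it was Bgn at 147.9 ± 13.7, Aspn at 64.6 ± 8.58, Ogn at 45.3 ± 7.85 and Fmod at 18.8 ± 1.55, and the 4 after them, Dcn, Prelp, Podn and Lum, overlapped their neighbours. Omd was last at each time-point, at 0.0832 to 0.454 CPM per kb. With the longest transcript as the length, Bgn came before Fmod at E15.5 and E18.5 as well, Dcn before Aspn at E18.5 and before Fmod at P8, and Podn before Prelp at P8, so these orders depend on the length used.

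Promoters are shown for Fmod, which had the largest fall, and for Aspn and Bgn, which were higher after birth, as the 250 bases before the RefSeq start on GRCm38.p6. Sites were searched on both strands for TATAAA (the TATA box), for GGGCGG (the GC box), for TGANTCA (bound by AP-1) and for CANNTG (the E-box). Matches to the first 3 are in capitals, which may overlap each other. Over 32851 RefSeq promoters, 12.4% hold TATAAA, 32.7% GGGCGG, 6.75% TGANTCA and 66.2% CANNTG in this window. The Aspn promoter (chr13:49544193-49544442, plus strand) holds 2 matches to TATAAA, the Bgn promoter (chrX:73483351-73483600, plus strand) 3 to GGGCGG, and the Fmod promoter (chr1:134037004-134037253, plus strand) none to these 3. Each of them holds 1 CANNTG. A match is a run of letters in this window and was not tied to any measured binding.
Aspn: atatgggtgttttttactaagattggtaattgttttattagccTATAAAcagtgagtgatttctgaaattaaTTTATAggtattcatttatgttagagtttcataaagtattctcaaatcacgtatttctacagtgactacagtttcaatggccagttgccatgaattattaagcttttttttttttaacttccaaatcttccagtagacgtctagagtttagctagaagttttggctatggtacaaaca
Bgn: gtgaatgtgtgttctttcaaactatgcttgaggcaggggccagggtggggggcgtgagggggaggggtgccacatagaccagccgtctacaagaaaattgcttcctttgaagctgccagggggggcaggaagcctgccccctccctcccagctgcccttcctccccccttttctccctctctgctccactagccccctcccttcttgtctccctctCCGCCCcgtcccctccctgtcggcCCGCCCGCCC
Fmod: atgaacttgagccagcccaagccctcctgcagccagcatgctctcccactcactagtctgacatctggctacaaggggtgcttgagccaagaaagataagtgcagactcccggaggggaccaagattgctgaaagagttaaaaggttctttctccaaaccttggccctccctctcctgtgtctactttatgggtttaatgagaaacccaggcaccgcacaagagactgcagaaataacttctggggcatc

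Among the other family genes, 5 of 9 were tested, and from E18.5 to P5 2 were called higher and 2 lower (edgeR), against 17.5% and 9.34% of all genes. Chad, the cartilage SLRP chondroadherin, had means of 0.858, 0.591, 10.01 and 36.3 CPM at the 4 time-points. It rose by 4.15 (SE 0.36, adjusted p = 4.77e-07) from E18.5 to P5 and by 1.85 (SE 0.29, adjusted p = 0.00292) from P5 to P8, or by 1.47 with an adjusted p of 0.0610 in the second step without the 3 libraries. The sum of 10 cartilage markers, on the other hand, was 131.8 to 153.3 CPM for E18.5, 29.6 to 44.0 CPM for P5 and 24.3 to 146.8 CPM for P8, where replicate 3 was lowest. Epyc, another cartilage SLRP, was called lower (adjusted p = 0.0226), with 23, 20 and 56 reads in the E18.5 libraries and 0, 3 and 10 in those of P5, too few for a fold. This call was lost without E18.5 replicate 3, P5 replicate 1 or P5 replicate 2, with an adjusted p of 0.0629 to 0.0855. Tsku, a secreted inhibitor of several growth factors, fell by 1.005 (SE 0.09, adjusted p = 1.13e-06), at the fold threshold, and was under it, at -0.93 to -0.97, without E18.5 replicate 3, P5 replicate 1 or P5 replicate 3 and at -0.99 without the 3 libraries with thymus markers. Chadl was at 1.69 to 5.29 CPM and passed in no neighbouring step. Kera, Optc, Nyx and Podnl1, which are not in the count table, did not exceed 1.42 CPM in any library.

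Genes around the SLRPs were followed in further lists, to be read against the 17.5% of all genes called higher and the 9.34% called lower from E18.5 to P5. With an adjusted p below 0.05 alone, 11369 of all 15994 genes tested passed in this step. Of 22 tested genes that build chondroitin and dermatan sulfate chains, 2 were called higher, a smaller share than among all genes, and 0 lower from E18.5 to P5 by edgeR (3 and 0 by DESeq2). Of the 22, 16 had an unadjusted p below 0.05, 6 of them lower, and 15 an adjusted p below 0.05. The 2 called higher by edgeR are Chsy3, which extends the chains, at 1.45 (SE 0.19, adjusted p = 1.80e-05) on the log2 scale, and Csgalnact2, which starts them, at 1.14 (SE 0.09, adjusted p = 1.92e-07). The median of the list was 0.01. Of 12 genes of keratan sulfate synthesis, 5 were called higher (17.5% of all genes) and 0 lower (9.34%) by edgeR and by DESeq2, 11 had an unadjusted p below 0.05, 2 of them lower, and the median was 0.69. The sulfotransferase gene Chst1 rose by 2.28 (SE 0.12, adjusted p = 1.00e-08). Chst4, another sulfotransferase gene, went from 4, 0 and 7 reads in the E18.5 libraries to 157, 68 and 88 reads in those of P5 (adjusted p = 8.10e-05), too few reads before birth for a fitted fold to be read as a size. B3gnt2, which extends the chains, rose by 1.35 (SE 0.37, adjusted p = 0.00610). It too had few reads, 12, 29 and 49 in the E18.5 libraries and 78, 73 and 82 in those of P5.

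Among 19 fibrillar collagens and fibril partners, 3 were called higher and 5 lower from E18.5 to P5, against 17.5% and 9.34% of all genes, with a median of -0.03. Col11a1, a collagen of thin fibrils and of cartilage, fell by 3.38 (SE 0.38, adjusted p = 5.73e-06), and Lox, which cross-links collagen and elastin, fell by 2.11 (SE 0.09, adjusted p = 2.74e-09). Pcolce2, an enhancer of procollagen processing, rose by 2.99 (SE 0.13, adjusted p = 2.58e-09). From P5 to P8, 3 were called higher and 0 lower by edgeR and by DESeq2, against 2.88% and 0.0875% of all genes, and all 11 with an unadjusted p below 0.05 were higher. They were Col5a3 at 2.20 (adjusted p = 0.0142), Col11a1 at 1.76 (adjusted p = 0.00986) and Col14a1 at 1.02 (adjusted p = 0.000937). Without the 3 libraries these were 0.73 (adjusted p = 0.259), 0.44 (adjusted p = 0.395) and 0.98 (adjusted p = 0.00529), and none passed.

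Of 14 growth factor and receptor genes whose proteins SLRPs bind, 7 were called higher and 1 lower from E18.5 to P5, against 17.5% and 9.34% of all genes, with a median of 0.95. Tlr4, a receptor of innate immunity that binds biglycan, rose by 2.80 (SE 0.20, adjusted p = 1.12e-07), and Ccn2, a matrix-associated signalling protein, by 2.26 (SE 0.16, adjusted p = 8.14e-08). Erbb4, a receptor tyrosine kinase gene, fell by 2.63 (SE 0.40, adjusted p = 7.56e-05). Of 8 tested genes for proteases that cleave SLRPs, 3 were called higher and 0 lower by edgeR and by DESeq2, beside the same shares of all genes, and of the 7 with an unadjusted p below 0.05, 1 was lower. Mmp9 rose by 4.23 (SE 0.58, adjusted p = 2.98e-05), Htra1 by 2.78 (SE 0.09, adjusted p = 5.44e-10) and Adamts1 by 1.51 (SE 0.15, adjusted p = 2.13e-06). Mmp9 had only 29, 10 and 18 reads in the E18.5 libraries, and 443, 307 and 381 in those of P5. From E15.5 to E18.5, 0 of the 79 tested genes of these 6 lists were called by edgeR and 1 by DESeq2, in a step where 1.59% of all genes were called higher and 1.46% lower. In that step, where 3441 of all 15994 genes had an adjusted p below 0.05, 18 of the 79 had one and 29 had an unadjusted p below 0.05. From P5 to P8, 6 were called by edgeR, all higher (2.88% of all genes), and 0 without the 3 libraries.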

How the data were processed

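RNA of flash-frozen whole lungs was prepared with standard TruSeq protocols. Per the labels and the study's methods, reads were aligned to mm10 with TopHat2 2.1.1 and Bowtie2 2.3.4 and counted with HTSeq 0.10.0. The deposited raw counts cover genes past the authors' filter on low expression. The deposited CPM values are relative to all reads mapped, from 48436716 to 62279460 per library, and 100% of positive values are whole reads within 0.01. The PSI values in percent and their read numbers were made by the authors with VAST-TOOLS.

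Counts were tested in R 4.3.3 with edgeR 4.0.16 (TMM, quasi-likelihood F test) in 1 fit of the 12 libraries over the 15994 genes that reached 1 CPM in 3 or more libraries, with p-values adjusted by Benjamini-Hochberg. Standard errors are the absolute log2 fold change over the square root of F. DESeq2 1.42.0, other scalings, no filter, fits of only the libraries compared, a replicate block and each library left out were alternatives. The edgeR step was tested on simulated data of 15754 genes for E18.5 to P5, where it found 100 of 100 genes changed 4-fold and 86 of 100 changed 2.5-fold. The simulation gave every gene the same spread and left genes with few reads unchanged. It therefore does not cover changes in genes with few reads or a large spread. All pairs of replicates differed by more than counting noise. Depth was similar among libraries, and read numbers under about 10 carry large counting error.

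Gene symbols came from the Gencode table, which named 51632 of 51825 identifiers, and exon lengths from Gencode vM21, a later release than that of the study on the same build. The 9 genes and all lists were chosen with earlier results of these data known. The genes named from a list are at most 3 called genes with the largest absolute log2 fold change in a step. The 13 marker lists are lung epithelium, fibroblast, adventitial fibroblast, smooth muscle and myofibroblast, pericyte, mesothelium, cartilage, tendon, bone, skeletal muscle, thymus, adipocyte and proliferation.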

Additional observations from a re-analysis of the deposited data

How the results depend on the processing

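Of 560 recomputed fold changes of the tested members, 554 kept direction and side of the threshold. The exceptions were Dcn and Lum without the 3 libraries with thymus markers (given with those genes), Lum from P5 to P8 without P8 replicate 3, at 2.27 with an adjusted p of 0.00859 (edgeR), and Prelp over the whole span, from 0.96 to between 1.01 and 1.03 without E15.5 replicate 1, E15.5 replicate 3 or P8 replicate 3. Without these 3 libraries, members called higher from P5 to P8 went from 2 to 1, members called lower over the whole span from 1 to 2, all genes called from P5 to P8 from 474 to 90, and genes of the 6 lists called there from 6 to 0. The lone P8 library left is 1 reason for fewer calls. Reads recovered from CPM, with at least 10 reads in at least 3 libraries, gave 565, 5270, 559 and 6366 genes called in the 4 comparisons, 2 members higher from E18.5 to P5 with Omd counted, and 5 proteases. With an adjusted p below 0.05 alone, the members called higher were 3, 3 and 4 at E15.5 to E18.5, E18.5 to P5 and over the whole span, and all genes called were 3441, 11369, 2872 and 12197. From E18.5 to P5 the lists then had 15 (chondroitin and dermatan sulfate), 11 (keratan sulfate), 15 (collagens) and 7 (proteases), and the 6 lists had 18 and 27 in the steps before and after. Fits of only the libraries compared called 291 genes and 2 list genes from E15.5 to E18.5, and DESeq2 called 1 list gene there. The cause was not tested.

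With each library left out in turn, all genes called ranged from 284 to 572 in the first step (487 with all) and from 198 to 682 in the last, the lowest without P8 replicate 2. Other SLRP genes from E18.5 to P5 ranged from 2 to 4, with 2 without E18.5 replicate 3 or P5 replicate 1, where neither Epyc nor Tsku passed, while Epyc alone was lost without P5 replicate 2 and Tsku alone without P5 replicate 3. The 6 lists ranged from 0 to 1 and from 3 to 8 in the outer steps. The PSI change ranged from 12.8 to 22.9 percentage points in the first step and from 43.95 to 54.02 in the step after it, both ends set by E18.5 libraries. Inner events alone gave mean PSI of 27.8% at E15.5 and 93.3% at P5, and uncorrected reads 93.0% at P5. The Aspn whole-span log2 fold change was 3.61 without the 3 libraries. By longest transcript, Bgn ranked 1 at E15.5 and E18.5 in place of 2, and Aspn 5 in place of 4 at E18.5. Scaling junction reads by effective library size moved no value by more than 1 SD.

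Deviations of same-numbered libraries correlated between -0.343 and 0.301, so the numbers do not pair the samples. The replicate block gave 456, 4308, 414 and 5171 genes called and changed no call of a member.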
